A study of Mus musculus with 25 samples.

Results

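Heparan sulfate is a long sugar chain, carried by core proteins on the cell surface and in the matrix, that binds growth factors such as FGFs, BMPs, Hedgehog proteins and Wnts. Its binding sites are made in the Golgi, where sulfotransferases add sulfate groups to the growing chain, and are edited outside the cell, where sulfatases remove some of those groups and heparanase cuts the chain. In the palate, as in other parts of the face, these growth factors pattern the shelves along their axes. The genes described here are 10 that act on the finished or growing chain: the heparanase gene Hpse and its relative Hpse2, the extracellular sulfatases Sulf1 and Sulf2, the N-deacetylase/N-sulfotransferase gene Ndst1, the 2-O-sulfotransferase gene Hs2st1, the 6-O-sulfotransferase genes Hs6st1 and Hs6st2, and the 3-O-sulfotransferase genes Hs3st3a1 and Hs3st3b1. They were found by gene symbol, as 10 of the 37406 genes listed. Hpse2 was chosen by its anterior and posterior RPKM values in these libraries, so that difference is given below as a description, with no test.

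The tissue was the secondary palate of wild type CD1 mouse embryos at E14.5 (embryonic days after mating), with no treatment and no altered allele in any group. The anterior and the posterior part were each cut by laser capture into a medial, a lateral, an oral and a nasal compartment, RNA was amplified, and libraries were sequenced. Each of the 8 compartments had 3 libraries, except the anterior nasal compartment with 4, giving 13 anterior and 12 posterior libraries in all. The study calls the replicates biological. The labels do not say whether they came from separate litters, so the p-values measure the spread between these libraries. In whole compartments, fewer cells that use a gene and less RNA per cell cannot be told apart.

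Levels are RPKM, reads scaled to transcript length and to the total of the library, so levels of different genes can roughly be set side by side. The values imply totals of about 1639440 to 6555730 counted reads per library. The study states a larger mean number of sequenced reads, from before filtering, so the read counts below rest on inferred totals. The labels of both ends held: the summed level of the anterior markers Shox2, Msx1 and Alx1 was 157 to 256 RPKM in the anterior libraries and 2.00 to 63.8 in the posterior ones, and that of the posterior markers Barx1, Meox2 and Tbx22 was 8.74 to 22.2 and 90.3 to 414. The 7 palatal mesenchyme markers summed to 687 to 1061 RPKM in anterior and 654 to 1327 in posterior libraries. Anterior oral replicate 1 and posterior medial replicate 2 stood apart, with the lowest mean correlations with their own compartment (0.703 and 0.652). The libraries were sequenced in 8 runs, which only partly cross the compartments.

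By median level over the 25 libraries, the endosulfatases led, with Sulf2 at 65.8 and Sulf1 at 49.4 RPKM. Hs2st1 (34.8), Ndst1 (25.02), Hs6st1 (17.2) and Hs6st2 (8.92) followed, and each of these 6 genes was at 5 RPKM or more in all 25 libraries. Hpse2 had a median of 7.46 RPKM that describes no compartment, because its levels fell in separate ranges. Hs3st3b1 (4.16), Hs3st3a1 (1.87) and Hpse (1.11) were low, and Hs3st3a1 and Hpse reached 5 RPKM in 0 libraries. The levels of Hs3st3b1 and Hs3st3a1 lack reads from a stretch they share, as described below, so their place in this order is less sure. The ratio of the highest to the lowest compartment mean was 1.29 for Hs2st1, 1.44 for Hs6st2 and 1.62 for Ndst1, against 9.35 for Hs3st3b1 and 305 for Hpse2.

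Upstream sequence is shown for Hpse2, Sulf2 and Hs3st3b1, around which the regional differences below turn, as the 250 bases before each annotated start site. Capitals mark TAAT on either strand, the core that many homeodomain proteins bind. The sequences are from RefSeq on GRCm38.p6, which lists 8 of the 10 genes in the table used, all on the minus strand here, and are written 5′ to 3′. The build differs from the mm9 of the expression values.
Hpse2, chr19:43388356-43388605: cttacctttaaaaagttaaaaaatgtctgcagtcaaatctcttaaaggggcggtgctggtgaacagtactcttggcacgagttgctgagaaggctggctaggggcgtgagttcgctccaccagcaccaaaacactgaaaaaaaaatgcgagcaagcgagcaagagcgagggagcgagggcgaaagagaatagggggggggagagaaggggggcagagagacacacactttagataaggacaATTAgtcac
Sulf2, first start, chr2:166155684-166155933: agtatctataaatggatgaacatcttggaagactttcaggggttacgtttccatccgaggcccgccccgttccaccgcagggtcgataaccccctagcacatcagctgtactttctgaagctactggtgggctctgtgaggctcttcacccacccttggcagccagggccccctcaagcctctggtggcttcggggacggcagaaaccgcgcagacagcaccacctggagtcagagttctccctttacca
Sulf2, second start, chr2:166155286-166155535: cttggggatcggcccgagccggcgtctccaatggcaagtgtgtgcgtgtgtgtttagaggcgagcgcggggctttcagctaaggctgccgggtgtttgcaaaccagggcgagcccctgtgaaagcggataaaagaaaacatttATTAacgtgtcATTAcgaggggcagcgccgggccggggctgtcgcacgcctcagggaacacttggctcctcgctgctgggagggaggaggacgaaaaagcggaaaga
Hs3st3b1, chr11:63922285-63922534: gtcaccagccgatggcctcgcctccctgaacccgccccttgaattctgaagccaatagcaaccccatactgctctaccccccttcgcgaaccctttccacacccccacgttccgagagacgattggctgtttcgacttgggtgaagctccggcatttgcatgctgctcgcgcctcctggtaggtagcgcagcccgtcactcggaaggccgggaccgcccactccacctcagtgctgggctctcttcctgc
TAAT occurred 1 time before Hpse2, 2 times before the second start of Sulf2, and 0 times before the first start of Sulf2 and before Hs3st3b1, and 54.9% of the 32851 upstream windows of this length in the table held it. The GC box GGGCGG, on either strand, occurred 1 time before Hpse2 and the first start of Sulf2, 2 times before Hs3st3b1 and 0 times before the second start of Sulf2, and 32.7% of windows held it. These strings cannot overlap each other, and a match is a match of letters only.

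Hpse2 encodes a secreted protein related to heparanase that binds heparan sulfate and, unlike heparanase, is not known to cut it. In anterior lateral libraries it measured 19.0, 31.4 and 23.8 RPKM. In anterior nasal libraries it measured 23.7, 15.9, 24.3 and 14.2 RPKM. In anterior medial libraries it measured 10.9, 15.1 and 15.5 RPKM, and in anterior oral libraries 7.46, 11.4 and 16.6 RPKM. All 13 anterior libraries therefore held the transcript. The posterior libraries held almost none: 0.168, 0.197 and 0.202 RPKM in lateral, 0.309, 0.365 and 0.187 in nasal, 0.147, 0.137 and 0.382 in oral, and 0, 0 and 0.243 in medial. The lowest anterior value, 7.46, was above the highest posterior value, 0.382, and no compartment overlapped its counterpart.

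The mean of Hpse2 was 17.6 ± 6.60 RPKM (SD, n = 13) in the anterior and 0.195 ± 0.121 (SD, n = 12) in the posterior palate, a ratio of 90.6. In reads, as worked out from the values, the anterior libraries held 26.1 to 232 each and the posterior ones 0 to 4 each. The sums were 1533 anterior and 20 posterior reads, and relative to the counted reads their ratio was 88.8. Within the compartments the same ratio was 172 in medial, 141 in lateral, 65.4 in oral and 60.9 in nasal tissue. The posterior reads behind these were 2, 4, 6 and 8, so the ratios are rough. No interval is given, because Hpse2 was chosen by this difference. On the log2(RPKM + 0.1) scale the posterior minus anterior difference was -5.96, and it was -6.51 within medial, -6.40 within lateral, -5.22 within oral and -5.65 within nasal tissue. These log2 values understate the change of a gene this low. The split was seen inside sequencing runs as well: in the run with most libraries of both ends, 3 anterior medial libraries held 10.9 to 15.5 RPKM and 5 posterior libraries 0 to 0.382.

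**Figure D1:**
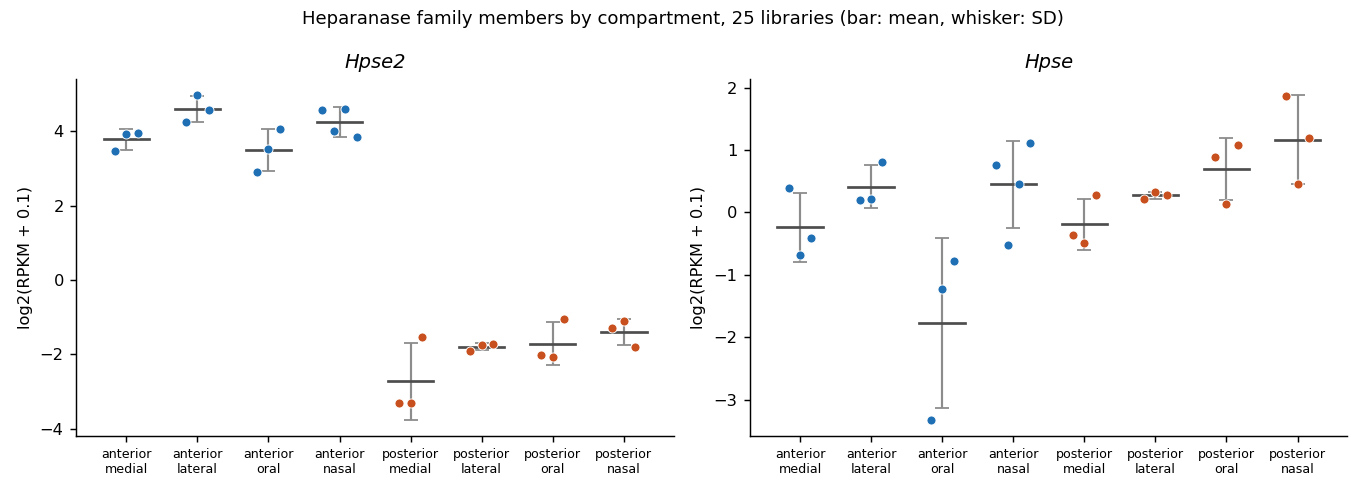
Levels of Hpse2 and Hpse as log2(RPKM + 0.1) in each of the 25 libraries (points; blue, anterior; orange, posterior), with the compartment mean (bar) and SD (whisker). Every anterior library lies far above every posterior library for Hpse2, whose lowest anterior level is 7.46 RPKM; Hpse shows no such split and is lowest in the anterior oral libraries.

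Across the anterior palate the order of Hpse2 means was lateral (24.7 ± 6.25 RPKM, n = 3), nasal (19.5 ± 5.22, n = 4), medial (13.9 ± 2.56, n = 3) and oral (11.8 ± 4.58, n = 3). Neighbours in this order overlapped, while lateral and medial, cut as a pair, did not. The anterior lateral minus medial difference was 0.82 on the log2 scale (SE 0.22), with a limma adjusted p of 0.116 adjusted across every gene in the comparison (Benjamini-Hochberg). The anterior oral minus nasal difference was -0.75 (SE 0.34, limma adjusted p = 1.00).

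The genes whose log2 levels followed Hpse2 most closely over the 25 libraries, among 11913 genes at 5 RPKM or more in at least 3 libraries, were Alx1 (Pearson's r = 0.957), Msx1as (0.9503), Ambn (0.946), Foxd2 (0.939) and Atp8a1 (0.927). Alx1 encodes a homeodomain factor of the facial mesenchyme, Msx1as is an RNA antisense to Msx1, Ambn encodes the enamel matrix protein ameloblastin, Foxd2 a forkhead factor and Atp8a1 a lipid flippase. Each was higher in the anterior palate, as Hpse2 is, with Alx1 at a mean of 73.0 RPKM in anterior and 1.78 in posterior libraries and Foxd2 at 5.76 and 0.191. These correlations describe libraries that share compartments and runs. Hpse2 was chosen by its split between the ends, so the genes closest to it are bound to share that split. Whether the counting used strand is not given in the sources used here, so reads of Msx1as and Msx1 may not be told apart.

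Hpse encodes heparanase, the enzyme that cuts heparan sulfate chains. It lay between 0 and 3.57 RPKM, which is 0 to 75.4 reads per library with a median of 12. Posterior nasal libraries measured 3.57, 1.27 and 2.18 RPKM and anterior nasal ones 1.59, 0.594, 1.27 and 2.06. Posterior oral libraries measured 1.75, 1.00 and 2.03 RPKM. The anterior oral libraries measured 0, 0.330 and 0.482 RPKM, on 0, 4 and 11 reads, and were the lowest set. The oral groups did not overlap, and the posterior minus anterior difference within oral tissue was 2.48 (SE 0.53, limma adjusted p = 0.0345), the 1 call among the 9 genes other than Hpse2 where 0.52% of 11915 genes were called. That call rested on few reads: it was lost without anterior oral replicate 1 (adjusted p = 0.243) and without any 1 of the 3 posterior oral libraries (0.0579 to 0.213), at pseudocounts of 1 and 0.01 (0.113 and 0.117), without a filter on low values (0.0649) and with the run as a covariate (0.570). Over all compartments Hpse differed by 0.72 (SE 0.36, limma adjusted p = 0.351). The anterior oral minus nasal difference was -2.22 (SE 0.64, limma adjusted p = 0.897), also without overlap.

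Sulf1 and Sulf2 encode the secreted endosulfatases that take 6-O-sulfate groups off heparan sulfate at the cell surface and thereby change how Wnts, FGFs and BMPs bind. Sulf2 was higher in the posterior than in the anterior palate over all libraries, and its values are given by compartment. In lateral tissue the anterior libraries measured 65.8, 60.8 and 51.3 RPKM and the posterior ones 134, 117 and 121. In nasal tissue the anterior libraries measured 58.5, 57.3, 59.6 and 62.3 RPKM and the posterior ones 134, 108 and 118. The groups were far apart in both, and every posterior library was above every anterior one. In oral tissue the anterior libraries measured 50.8, 70.6 and 65.5 RPKM and the posterior ones 92.9, 113 and 89.1, again without overlap. In medial tissue the anterior libraries measured 75.7, 65.7 and 56.8 RPKM and the posterior ones 81.1, 59.7 and 48.1, which overlapped.

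Over all libraries the posterior mean of Sulf2 was 101 ± 27.7 RPKM (SD, n = 12) and the anterior mean 61.6 ± 7.12 (SD, n = 13). The log2 difference was 0.66 (SE 0.14, limma adjusted p = 0.0041), and Sulf2 was the 1 call among the 9 genes other than Hpse2 where 3.32% of 8611 genes were called. It stayed past the threshold in each alternative tried, with adjusted p from 1.1e-04 to 0.0393, the highest with the run as a covariate. Within lateral tissue the difference was 1.07 (SE 0.20, limma adjusted p = 0.0065), where 0.864% of genes were called, and within nasal tissue 1.00 (SE 0.18, adjusted p = 0.0048), where 1.91% were called. With the run as a covariate these 2 calls were lost (adjusted p = 0.189 and 0.275), and the lateral call was also lost without anterior lateral replicate 3 (0.0600). Within oral tissue it was 0.66 (SE 0.20, adjusted p = 0.264). Within medial tissue, where 1.66% of genes were called, it was -0.09 (95% interval -0.50 to 0.32, adjusted p = 0.846). In the run shared by anterior lateral replicate 3 with 3 posterior libraries, Sulf2 was 51.3 in the former and 117 to 121 in the latter. In a run with 2 libraries of each end it was 62.3 to 65.5 in anterior and 92.9 to 134 in posterior ones. In the run with most libraries of both ends the ranges overlapped. There the 3 anterior libraries, all medial, held 56.8 to 75.7 RPKM and the 5 posterior ones 48.1 to 113.

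Among posterior compartments a difference of Sulf2 was not called. The posterior lateral libraries did not overlap the posterior medial ones, by a log2 difference of 1.01 (SE 0.30, limma adjusted p = 0.957), and 0% of 10328 genes were called in this comparison, with 159 genes, Sulf2 alone among the 10, at an unadjusted P under 0.05. In the fit of all 25 libraries, which pools the spread, the adjusted p of the same difference was 0.0248. Whether the lateral minus medial difference of Sulf2 itself differed between the ends was tested as an interaction (1.16, SE 0.31, limma adjusted p = 0.737), with 0.00902% of 11091 genes called. Of the 10 genes 0 were called there by limma, and 2, Sulf2 and Hs3st3b1, were at an unadjusted P under 0.05. The limma P of Hs6st1, 0.0513 and so just past that level, ranked 382 of the 11091 genes. An F test of whether the posterior minus anterior difference was equal in the 4 compartments, chosen after the data were seen, called 0.369% of 11915 genes and 0 of the 9 genes other than Hpse2. Its lowest limma adjusted p was that of Sulf2 (0.167), followed by Hs3st3b1 (0.337). For Sulf2 the nasal difference exceeded the medial one by 1.097 (SE 0.27, limma adjusted p = 0.0636, 0.697% of genes called), the lateral difference exceeded it by 1.16 (SE 0.28, adjusted p = 0.174, 0.0923% called) and the oral difference by 0.76 (SE 0.28, adjusted p = 0.4665, 0.0336% called). That the difference between the ends varies by compartment was therefore not shown for Sulf2.

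Markers of cartilage and bone-forming cells moved with part of this pattern. The 5 cartilage markers summed to 20.7 to 21.6 RPKM in anterior and 46.6 to 77.2 in posterior lateral libraries, and to 19.7 to 48.8 and 65.5 to 109 in oral ones, both without overlap. In nasal tissue the sums were 57.4 to 101 and 91.7 to 143, and in medial tissue, where the ends of Sulf2 overlapped, 67.6 to 109 and 63.8 to 81.2. Col2a1, the cartilage collagen gene, had means of 8.94 and 27.5 RPKM in anterior and posterior lateral, 8.46 and 36.6 in oral, 20.6 and 40.6 in nasal and 18.7 and 20.6 in medial tissue. The other cartilage markers were not uniform. In nasal tissue the anterior and posterior means of Sox9 were 51.9 and 51.3 RPKM and those of Matn1 1.09 and 0.430. Those of Acan were 2.81 and 9.05 and those of Col9a1 1.61 and 9.93. In medial tissue Sox9 had 56.0 and 39.3 RPKM, Acan 7.08 and 0.801, Matn1 0.0509 and 0.413 and Col9a1 1.79 and 9.47. The 5 osteoblast markers, 0 of them at 0 throughout a group, summed to 378 to 547 RPKM in posterior nasal libraries, where Sulf2 was high. Their sums were 49.6, 146 and 155 RPKM in posterior lateral libraries and 58.6, 72.8 and 179 in anterior lateral ones, where 1 library held Ibsp at 93.9 RPKM. They were 83.5 to 107 in posterior oral, 67.1 to 73.6 in posterior medial and 46.0 to 119 in the other anterior libraries. The osteoblast factor genes Sp7 and Runx2 had means of 3.22 and 14.6 RPKM in anterior lateral and 19.0 and 45.0 in posterior lateral libraries. The rest of that list did not rise there: Alpl had means of 45.8 and 43.9 RPKM, Ibsp 31.6 and 7.70, and Spp1 8.43 and 1.26. In posterior nasal libraries Spp1 was low as well, at a mean of 1.04 RPKM. The part of either marker list in the Sulf2 difference was not tested. The genes most like Sulf2 over the 25 libraries were Smoc2 (r = 0.858), a matrix protein gene, and Zfhx3 (0.849), a zinc finger homeobox gene.

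**Figure D2:**
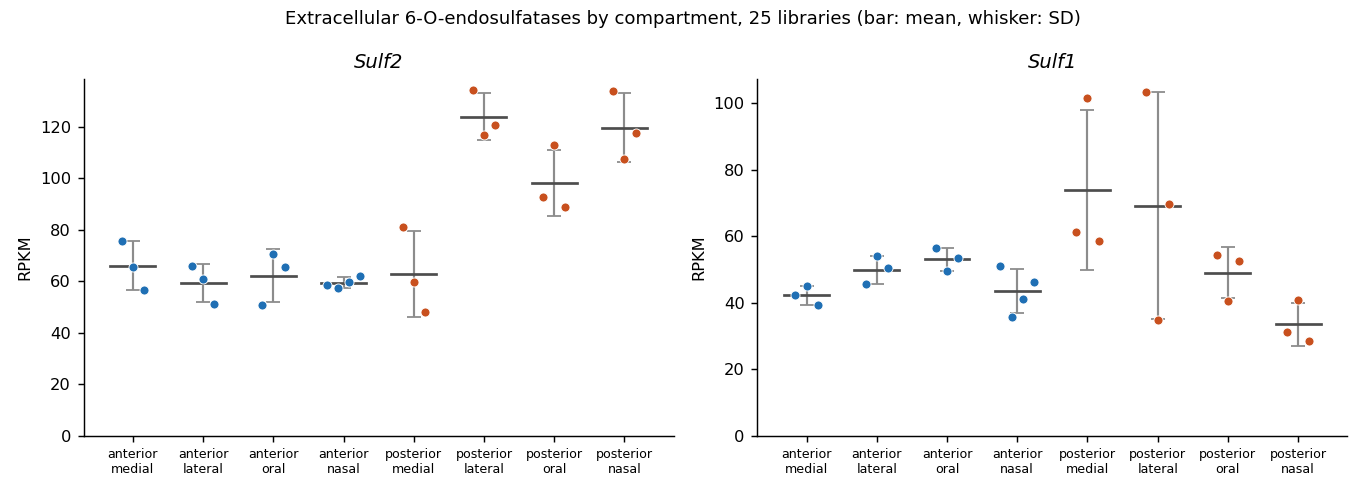
Levels of Sulf2 and Sulf1 in RPKM in each of the 25 libraries (points; blue, anterior; orange, posterior), with the compartment mean (bar) and SD (whisker). Sulf2 lies at 89.1 to 134 RPKM in posterior lateral, oral and nasal libraries and at 48.1 to 81.1 in the medial ones of that end; Sulf1 spreads most in the posterior lateral and medial libraries.

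Sulf1 did not follow Sulf2. Its anterior libraries lay between 35.9 and 56.3 RPKM. Posterior nasal libraries measured 31.3, 40.9 and 28.5 RPKM, posterior oral ones 54.3, 40.4 and 52.5, posterior medial ones 61.2, 102 and 58.6, and posterior lateral ones 103, 34.8 and 69.6. The posterior lateral replicates thus spread over a range that held most other libraries. The posterior minus anterior difference was 0.16 (SE 0.17, limma adjusted p = 0.734). Within medial tissue, where the groups did not overlap, it was 0.76 (SE 0.29, adjusted p = 0.268). The posterior oral minus nasal difference was 0.55 (SE 0.23, adjusted p = 0.596), in a comparison with 1.25% of 10589 genes called and 0 of the 10 genes here, by limma. Of the 10, Sulf1 alone was at an unadjusted P under 0.05, and its P of 0.0459 ranked 815 of the 10589 genes. Over the 25 libraries the log2 levels of Sulf1 and Sulf2 had an r of -0.12. The genes most like Sulf1 were Yaf2 (0.806) and Glt8d2 (0.801).

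Hs3st3b1 and Hs3st3a1 encode enzymes that add the rare 3-O-sulfate group. They lie on chromosome 11 of mm9, at 63698195 to 63735786 and at 64248834 to 64336337, separated by 513048 bases. They share near-identical sulfotransferase sequence, and reads with more than 1 alignment were removed by the authors, so reads from the shared stretch are missing from both. Hs3st3b1 was lower in the lateral than in the medial compartment of the anterior palate. Anterior lateral libraries measured 1.02, 0.610 and 0.905 RPKM and anterior medial ones 9.83, 7.98 and 5.86. The medial mean was 9.35 times the lateral one, and the groups did not overlap. The log2 difference was -3.08 (SE 0.24, limma adjusted p = 0.0017), the 1 call among the 10 genes where 2.51% of 10429 genes were called, and without any 1 library it was -3.27 to -2.88 (adjusted p 0.0024 to 0.0111). Hs3st3b1 met the minimum of 5 RPKM here only through the anterior medial libraries, where it was high. Genes of the set were kept in the fit whether or not they met it.

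The anterior lateral and medial libraries were sequenced in different runs, so run and compartment cannot be told apart in this comparison, and no difference adjusted for run can be had from these libraries alone. With the run as a covariate in the fit of all 25 libraries, where run effects come from the other compartments, the adjusted p was 1.00 at a difference of -3.30. At the posterior end lateral (1.12, 6.43 and 3.15 RPKM) and medial libraries (1.07, 6.80 and 3.58) overlapped throughout, with a difference of -0.07 (95% interval -2.12 to 1.99). The interaction that compares these differences was 3.01 (SE 0.97, limma adjusted p = 0.964), so a difference between the ends was not shown.

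Along the oral-nasal axis of the anterior palate Hs3st3b1 measured 0.711, 2.01 and 2.18 RPKM in oral and 4.85, 6.40, 7.60 and 2.37 in nasal libraries. The groups did not overlap, and the oral value was the lower in each of the 3 runs that held both. The difference was -1.66 (SE 0.50, limma adjusted p = 0.929), in a comparison where 0% of 10687 genes were called and 320 were at an unadjusted P under 0.05, Hpse and Hs3st3b1 among them. Posterior oral libraries measured 7.06, 6.55 and 4.16 RPKM and posterior nasal ones 3.73, 8.43 and 7.81, which overlapped. The interaction of these differences was 1.54 (SE 0.68, limma adjusted p = 1.00), with 0.035% of 11444 genes called and 0 of the 10 genes, Hs3st3b1 alone being at an unadjusted P under 0.05. That P of Hs3st3b1, 0.0436 by limma, ranked 357 of the 11444 genes. Between the ends, posterior values of Hs3st3b1 lay above anterior ones without overlap in oral (1.90, SE 0.62, limma adjusted p = 0.402) and in lateral tissue (1.68, SE 0.62, adjusted p = 0.492). Medial tissue went the other way, with overlap (-1.34, SE 0.62, limma adjusted p = 0.336). In nasal tissue the difference was 0.36 (SE 0.58, limma adjusted p = 0.862). Over all compartments it was 0.58 (SE 0.45, limma adjusted p = 0.594).

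**Figure D3:**
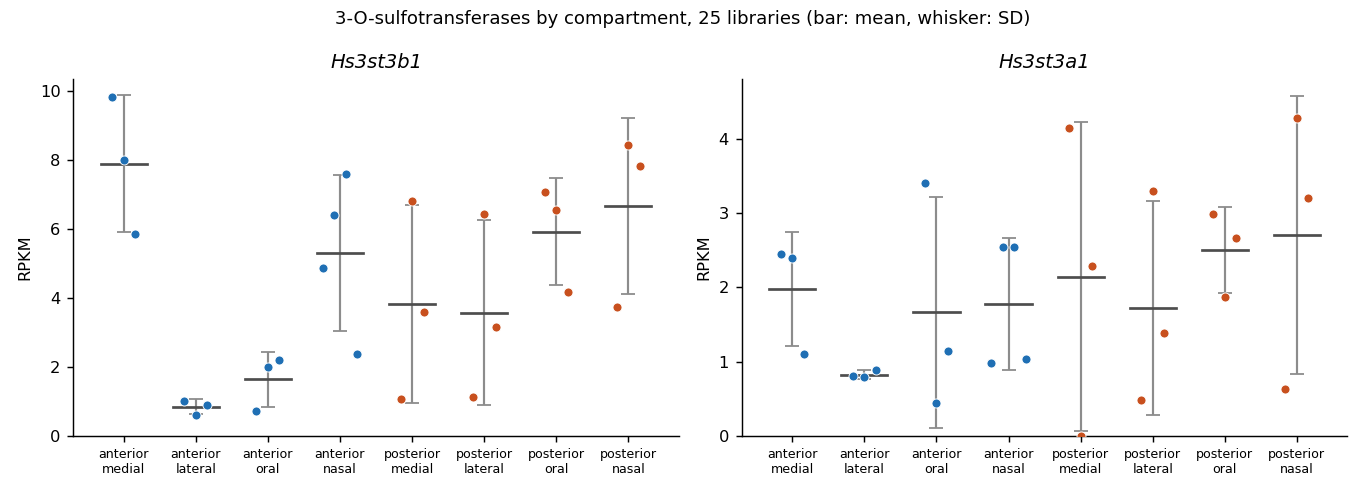
Levels of Hs3st3b1 and Hs3st3a1 in RPKM in each of the 25 libraries (points; blue, anterior; orange, posterior), with the compartment mean (bar) and SD (whisker). Hs3st3b1 is at 5.86 to 9.83 RPKM in anterior medial and at 0.610 to 1.02 in anterior lateral libraries, while Hs3st3a1 stays at or below 4.28 RPKM throughout.

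Hs3st3a1 lay between 0 and 4.28 RPKM. Anterior lateral libraries measured 0.801, 0.786 and 0.888 RPKM and anterior medial ones 2.44, 2.39 and 1.098, so the medial compartment was the higher of the pair here as well, without overlap (difference -1.09, SE 0.28, limma adjusted p = 0.108). Without anterior medial replicate 3 the adjusted p was 0.0060. The genes most like Hs3st3b1 over the 25 libraries were Sox9 (r = 0.844), a driver of cartilage formation, and Gcnt1 (0.838), a glycosyltransferase gene. The 5 cartilage markers, Sox9 among them, summed to 20.7 to 21.6 RPKM in anterior lateral and 67.6 to 109 in anterior medial libraries, and to 19.7 to 48.8 in anterior oral and 57.4 to 101 in anterior nasal ones. All 5 were above 0 in at least 1 library of each group, and their part in the Hs3st3b1 differences was not tested.

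Ndst1 encodes the enzyme that starts the modification of the chain by replacing acetyl with sulfate groups. It measured 5.05 and 6.96 RPKM in posterior medial replicate 2 and anterior oral replicate 1, the libraries that stood apart, and 15.8 to 45.8 in the other 23. The posterior minus anterior difference was -0.01 (95% interval -0.54 to 0.52, limma adjusted p = 0.988). Over the 25 libraries its log2 level followed that of Plxna1 (r = 0.977), a semaphorin receptor gene, and Ints3 (0.967). These r values include the libraries that stood apart, where Ndst1 was far below the rest, and were not computed without them.

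Hs2st1, which encodes the enzyme that sulfates uronic acid residues at the 2-O position, was the most even gene of the set. It lay between 30.1 and 42.7 RPKM in 24 libraries and at 61.2 in anterior oral replicate 1. The posterior minus anterior difference was -0.06 (95% interval -0.26 to 0.14, limma adjusted p = 0.840). The genes most like it were Bmpr1a (r = 0.789), a BMP receptor gene, and Mcl1 (0.747).

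Hs6st1 and Hs6st2 encode enzymes that add the 6-O-sulfate groups which the Sulf enzymes remove. Hs6st1 was higher in the posterior palate on average, at 22.3 ± 6.48 RPKM (SD, n = 12) against 14.4 ± 4.83 (SD, n = 13), but the ranges overlapped, and the difference of 0.68 (SE 0.20) had a limma adjusted p of 0.0636. Without both libraries that stood apart it was 0.64 with an adjusted p of 0.0293, and leaving out anterior medial replicate 1 or posterior medial replicate 2 alone also took it past the threshold (0.042 and 0.0268). The oral compartments were the farthest apart, with 5.41, 16.2 and 13.9 RPKM in anterior and 20.6, 38.1 and 28.0 in posterior libraries (1.38, SE 0.42, adjusted p = 0.299). Anterior lateral libraries (12.9, 13.1 and 10.8 RPKM) lay below anterior medial ones (21.3, 17.2 and 17.0), by -0.59 (SE 0.14, adjusted p = 0.0904). The genes most like Hs6st1 were Sh3gl1 (r = 0.852) and Mmp2 (0.851), a matrix protease gene, and those most like Hs6st2 were Itgbl1 (0.563) and Wbscr27 (0.559). Hs6st2 stayed within 6.83 to 13.4 RPKM, and its posterior minus anterior difference was 0.09 (95% interval -0.15 to 0.34, adjusted p = 0.778). Within oral tissue, where its groups did not overlap, the difference was 0.51 (95% interval 0.015 to 0.997, limma adjusted p = 0.676).

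**Figure D4:**
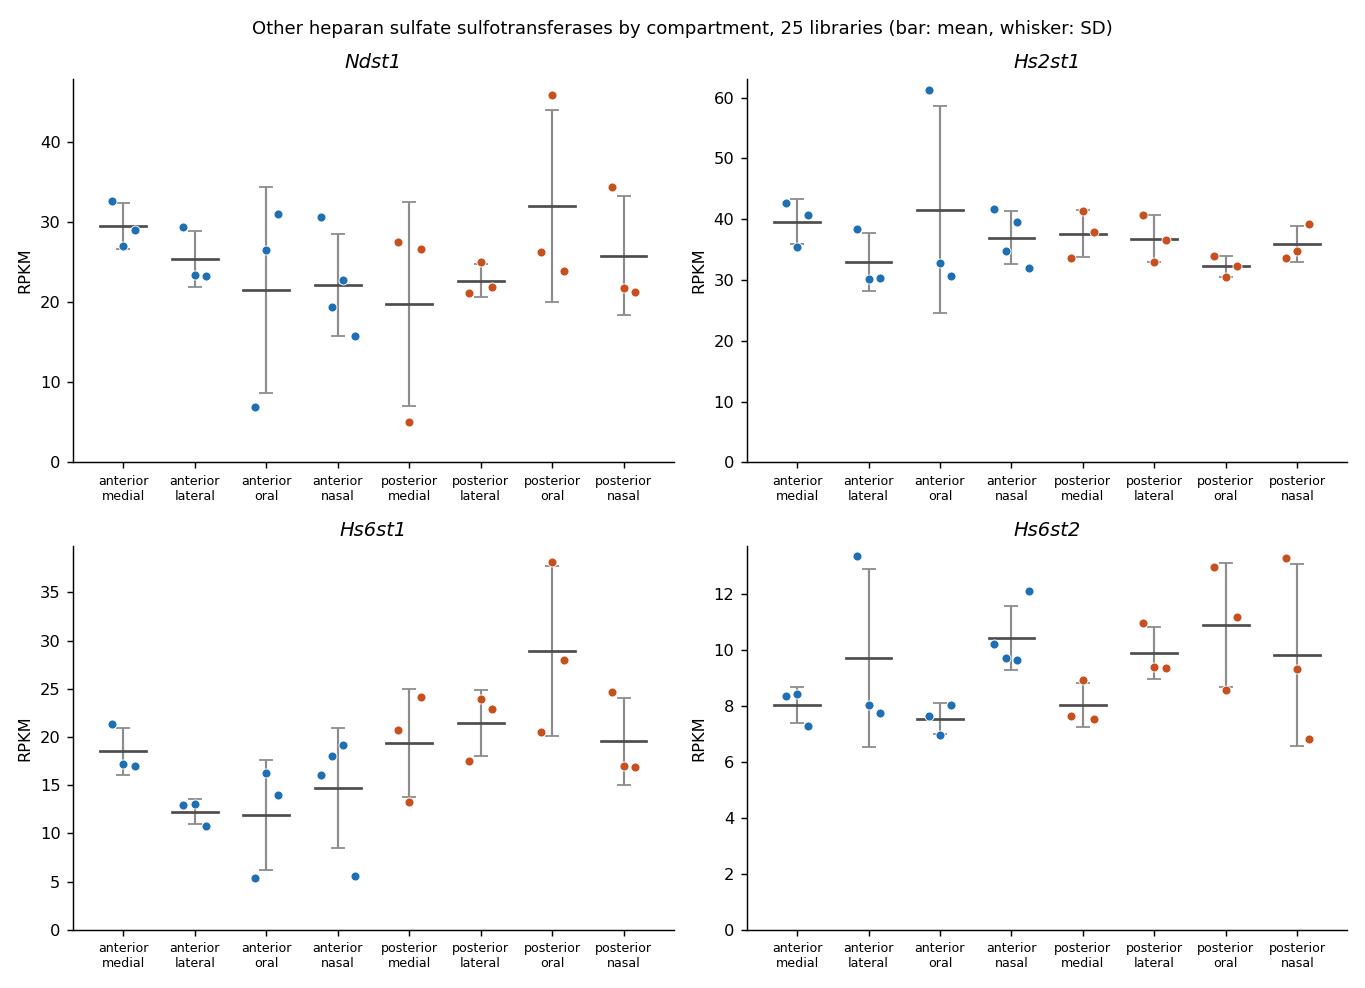
Levels of Ndst1, Hs2st1, Hs6st1 and Hs6st2 in RPKM in each of the 25 libraries (points; blue, anterior; orange, posterior), with the compartment mean (bar) and SD (whisker). The lowest Ndst1 values, 5.05 and 6.96 RPKM, and the highest Hs2st1 value, 61.2 RPKM, come from the libraries that stood apart; Hs6st1 is highest in posterior oral libraries.

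**Figure D5:**
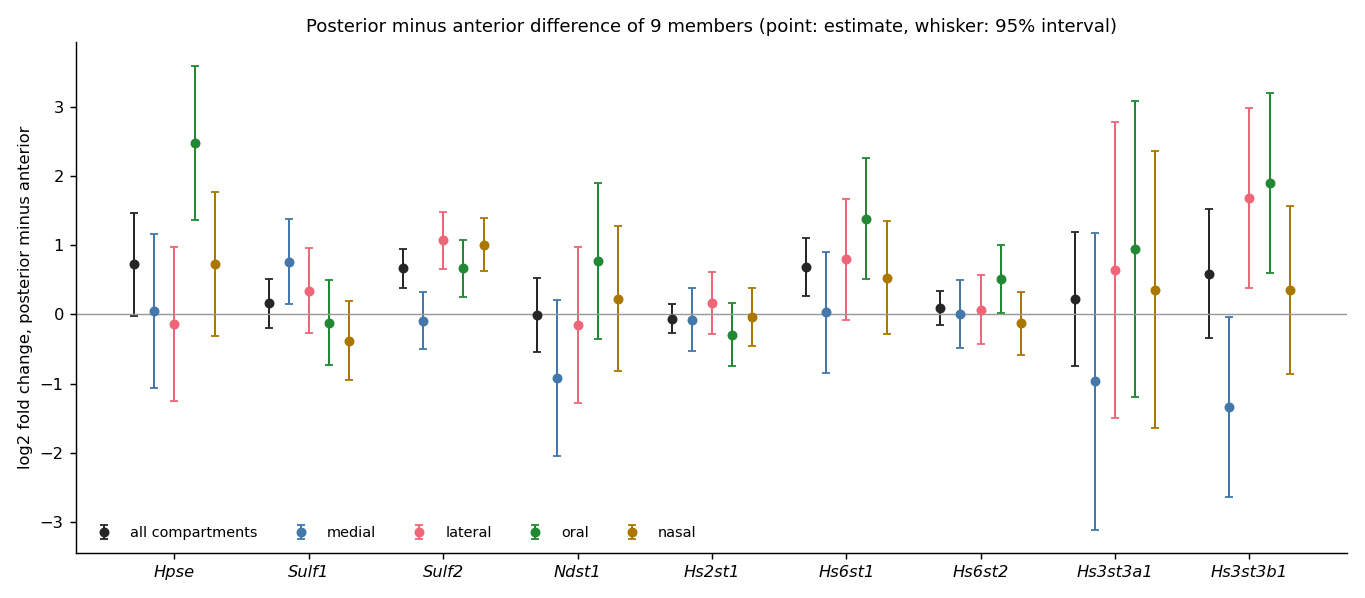
Posterior minus anterior differences on the log2(RPKM + 0.1) scale for the 9 genes other than Hpse2, over all compartments (black) and within each compartment (colours), as estimates (points) with 95% intervals (whiskers). The interval of Sulf2 lies above 0 over all compartments (0.38 to 0.95) and within lateral, oral and nasal tissue, and spans 0 within medial tissue. Every interval of Hs2st1 spans 0, and so do those of Hs6st2 except within oral tissue (0.015 to 0.997).

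Of the other genes of the pathway, Glce and Gusb were called between the ends, where 3.32% of 8611 genes were called. The lists are too short for their shares to be set against that one. In the same comparison a limma unadjusted P of 0.0587, that of Hpse, ranked 1440 of 8611. Of 11 genes for chain initiation and polymerisation, 7 were tested between anterior and posterior palate and 0 were called by limma (2 at an unadjusted P under 0.05), with a median difference of 0.14 beside 0.03 over all genes tested. Of 14 other sulfotransferase, epimerase and sulfate donor genes, 7 were tested and 1 fell: Glce, the epimerase that turns glucuronic into iduronic acid, had a mean of 62.9 ± 10.3 RPKM (SD, n = 13) in anterior and 43.6 ± 10.9 (SD, n = 12) in posterior libraries (-0.58, SE 0.16, limma adjusted p = 0.0474). Of 8 lysosomal breakdown genes, 5 were tested and 1 rose: Gusb, beta-glucuronidase, had 12.997 ± 2.31 RPKM in anterior and 17.6 ± 3.67 in posterior libraries (0.43, SE 0.11, adjusted p = 0.0249). With the run as a covariate both calls were lost (adjusted p = 0.712 for Glce and 0.608 for Gusb), and with the replicate number as a block as well (0.0805 and 0.0506). That of Glce held in 7 of the 25 fits that left out 1 library, with adjusted p up to 0.0763 (0.0074 at the lowest), and that of Gusb in all 25. The list medians were -0.07 and 0.01. Of 13 core protein genes, 0 were called by limma and 1 was at an unadjusted P under 0.05, with a median of 0.02. In the pairs of compartments and within compartments 0 of 290 tests of genes on these 4 lists were called by limma, and 33 (11.4%) were at an unadjusted P under 0.05. Over all genes in the same comparisons 1.1% of 89673 tests were called and 8.39% were at an unadjusted P under 0.05. Some listed genes that were not called, or were too low to be tested between the ends, had means far apart, and 3 are named after their values were seen. Hs3st6, another 3-O-sulfotransferase gene, had 1.78 ± 1.72 RPKM (SD, n = 3) in anterior lateral and 11.9 ± 4.81 (SD, n = 3) in anterior medial libraries (-3.15, SE 0.78, limma adjusted p = 0.0973), and 0.880 ± 1.08 in posterior medial ones (posterior minus anterior within medial tissue -4.42, SE 1.15, adjusted p = 0.0579). Hs3st5 had 4.00 ± 0.962 RPKM in anterior and 11.965 ± 3.08 in posterior medial libraries (1.55, SE 0.43, adjusted p = 0.0828). Xylt1, which encodes a xylosyltransferase that starts the chain on its core protein, had 1.95 ± 0.965 RPKM (SD, n = 13) in anterior and 4.28 ± 2.27 (SD, n = 12) in posterior libraries, below the minimum for that test.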

How the data were processed

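The 25 libraries were grouped by the compartment in their labels. Per the labels and the study's methods, RNA was amplified (Ovation V2), tagmented with Nextera and sequenced as single-end reads of 50 bases. TopHat and mm9 are named in the submitters' processing notes. The authors deposited RPKM values, made in GeneSpring after duplicate reads and reads with more than 1 alignment were removed. Read counts were not used here. Totals and reads per gene were worked out from the steps of low values: 597 of 600 depth ratios were the same by way of other libraries. Reads were resolved for 7 of the 10 genes, not for Hs3st3a1, Sulf1 and Sulf2.

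Differences were taken on the log2(RPKM + 0.1) scale and tested with limma (version 3.58.1, R version 4.3.3), over genes at 5 RPKM or more in at least 3 of the libraries compared (10 RPKM in at least 6 for all posterior against all anterior). Genes of the set below that minimum were added. Adjusted p-values are Benjamini-Hochberg over all genes tested, and a call is an adjusted p under 0.05. Within-compartment differences came from a fit of all 25 libraries. The fit was tested on simulated data. The permutation test used scipy 1.17.1. Members and gene lists were chosen with earlier results of these data known. Named were the 10 genes, called pathway genes (up to 3 per direction, list and comparison) and the 5 genes most like Hpse2 and 2 most like each other gene that reached 5 RPKM in 3 libraries. Runs were read from alignment names. Of 8 pairs of compartments, the deviations of same-numbered libraries correlated above 0.1 for every number in 1, anterior oral and nasal, so numbers were taken to pair libraries there only, and the block changed no call in it. The differences, SEs and p-values printed for that pair are from the fit without the block. Alternatives were pseudocounts of 1 and 0.01, no filter, median centring, a replicate block, a fit of all libraries, the run as a covariate and leaving out each library. No sample column was left unmapped.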

Additional observations from a re-analysis of the deposited data

How the results depend on the processing

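Fold changes are on the log2(RPKM + 0.1) scale unless said. The posterior minus anterior value of Hpse2 was -3.88 at a pseudocount of 1 and -6.92 at 0.01. With the run as a covariate the number of genes called became, for lateral less medial tissue, 0 (anterior) and 1 (posterior), for oral less nasal tissue 4 (anterior) and 15 (posterior), between the ends 143, and 15, 13 and 34 within lateral, oral and nasal tissue, and 3 and 0 for the medial-lateral and oral-nasal interactions; of the genes other than Hpse2, 0 were then called between anterior lateral and medial or within lateral, oral or nasal tissue, and Hs2st1 changed sign between the ends (0.10). In the fit of all 25 libraries the counts were 31, 25, 6 and 68 for the 4 pairs of compartments in that order and 10 for each interaction, with 1 of the 10 genes, Sulf2, in posterior lateral against medial. Without a filter the counts were 157 for anterior lateral against medial, 11 for posterior oral against nasal, 485 between the ends and 0 for each interaction. With the replicate block they were 157, 143 within nasal tissue and 0 for each interaction; among the 10 genes the block changed no call. At a pseudocount of 1 the interactions had 6 and 7 calls, and at 0.01 the oral-nasal one had 1. Within oral tissue 0 of the 9 genes other than Hpse2 were called at either pseudocount or without a filter. Without both libraries that stood apart, chosen after the data were seen, 454 genes and 2 of the 9, Sulf2 and Hs6st1, were called between the ends.

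Leaving out each library in turn gave, for lateral less medial tissue, 55 to 197 calls (anterior, 1 to 2 of the 10 genes) and 0 to 1 (posterior), for oral less nasal tissue 0 to 6 (anterior) and 12 to 57 (posterior), 231 to 414 between the ends (1 to 2 of the 9), 99 to 1007 within medial, 54 to 98 within lateral (0 to 1), 35 to 52 within oral (0 to 1) and 84 to 179 within nasal tissue, and 0 to 9 and 0 to 5 for the interactions. The fewest calls for anterior lateral against medial came without anterior lateral replicate 3 and the most within medial tissue without posterior medial replicate 3. Differences near 0 changed sign: Hs3st3b1 in posterior lateral against medial (-0.77 to 0.57) and posterior oral against nasal (-0.48 to 0.11), Sulf2 within medial tissue (-0.29 to 0.0846) and Hs2st1 between the ends (-0.0851 to 4.98e-05). Hs3st3a1 was called in anterior tissue without anterior medial replicate 3. The causes of these changes were not tested. Depth limits the lowest genes: Hpse has a median of 12 reads and Hpse2 at most 4 in posterior libraries.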

Other observations

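The balance of the endosulfatases was examined as the ratio of Sulf2 to Sulf1 in each library, a measure chosen after the values were seen. It was 0.901 to 1.79 in the 13 anterior libraries. In posterior nasal libraries it was 2.63 to 4.28, in posterior lateral ones 1.30 to 3.36, in posterior oral ones 1.70 to 2.80 and in posterior medial ones 0.588 to 1.32. The mean log2 ratio was 0.90 in posterior (n = 12) and 0.40 in anterior libraries (n = 13), a difference of 0.51 (two-sided permutation test with 100000 resamples, p = 0.0625). The ratio was chosen on these same values, so that p describes them only. The resamples also shuffled libraries without regard to compartment. Medial tissue went the other way, with 1.44 to 1.79 in its anterior libraries. Without both libraries that stood apart the difference was 0.61, given with no test. These libraries, posterior medial replicate 2 (0.588) and anterior oral replicate 1 (0.901), held the lowest ratio of their end. The ratio of Hpse2 to Hpse was 6.91 to 34.7 in the 12 anterior libraries with Hpse above 0 and 0 to 0.288 in the posterior ones.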
